A study of Mus musculus with 4 samples.

Results

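Complement genes were examined in cultured mouse aortic smooth muscle cells. The 9 genes were C3, C4b, Cfb, Cfd, Cfp, Cfi, Serping1, Cd55 and Cd59a, of 21367 genes that the arrays named. They were taken by symbol, and every probe whose RefSeq accession led to one of these symbols was kept, which gave 11 of 55679 probes. The set was drawn up with normalised values of these same arrays already known, so the levels and differences of the 9 genes are a description and were not tested.

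Complement is a cascade of plasma and cell surface proteins that marks particles for uptake, attracts leukocytes and can form a pore in a membrane. The classical and lectin routes build a C3-cleaving enzyme from C4 and C2, and the alternative route builds one from C3b and factor B. Regulators in plasma and on host cells take these enzymes apart or block the pore. Most circulating complement comes from the liver, but stromal and vascular cells make several components and carry the membrane regulators themselves.

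The cells were vascular smooth muscle cells (VSMC) of strain C57BL/6J, and each of 4 groups had 1 array. The groups were LAMP-2A knockout (L2AKO) cells with LDL, L2AKO cells without LDL (control), wild-type (WT) cells with LDL, and WT cells without LDL (control). LAMP-2A is the lysosomal membrane receptor of chaperone-mediated autophagy. All groups spent 24 h in medium with 5% LPDS (lipoprotein-deficient serum). The LDL groups received LDL at 150 µg/ml of its cholesterol together with bovine lipoprotein lipase (0.1 U/ml), and the labels do not say if the lipase was also added to control cells. Cells came from 5 aortas and were used at passages 12 to 16, so each line is a cultured, passaged population. RNA of a triplicate was pooled onto each array. With 1 array per group there was no replicate error between groups, and no test was run and no p-value exists for any difference.

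A value below is the log2 of a probe's background-subtracted signal minus the log2 of the array's 75th percentile, so 0 stands for the 75th percentile of that array. Levels of different probes are not comparable, and each gene is read as the difference of 1 probe between arrays. A gene counted as higher or lower at a difference of at least 2-fold, that is 1 log2 unit. Spots of a probe printed many times on 1 array had a median SD of at most 0.0539, which gives an SD of 0.0762 for a difference between arrays. That SD covers spotting and scanning only, not culture, RNA or slide.

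The 75th percentile of the signal was between 318.8 and 433.8, and between 47.2% and 52.0% of probes were well above background. The L2AKO LDL array lay on a slide of its own and the other 3 arrays shared a slide, so for every value of that array, slide and group cannot be told apart. On it, 7 of 8 spike-in controls fell beyond what the remaining 3 arrays spanned, from -1.19 to 0.63 relative to their mean. The comparison of the knockout with WT without LDL and the LDL response of WT cells each lie within 1 slide. The targeted gene Lamp2 had 2 probes. For L2AKO control minus WT control, the first gave a difference of 0.04 and the second -1.38. The labels and files do not place either probe relative to the deletion, so they do not check the genotype. Of 10 smooth muscle markers 6 were well above background on all arrays, and the contractile markers Myh11, Lmod1, Des and Myocd were not above background on any. All 9 fibroblast markers were above background on at least 1 array.

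Of the 9 complement genes, 7 were well above background on all 4 arrays, Cfd was above background on the L2AKO LDL array only, and Cfi on none. No complement probe was saturated. C3 and Serping1 had 2 probes each, and the other 7 genes had 1.

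C3 is the component on which all routes of activation converge, and its cleavage yields the opsonin C3b and the anaphylatoxin C3a. Its promoter was in the RefSeq table used here, and is shown because C3 was lower on both LDL arrays than on the controls. The 250 bases before the start, on the minus strand of GRCm38.p6, span chr17:57228137-57228386. Capitals mark every match to GGGANNNNC, the first letters of NF-kappa-B sites, and to TTNNGNAA, a core of C/EBP sites, on either strand:

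C3 promoter: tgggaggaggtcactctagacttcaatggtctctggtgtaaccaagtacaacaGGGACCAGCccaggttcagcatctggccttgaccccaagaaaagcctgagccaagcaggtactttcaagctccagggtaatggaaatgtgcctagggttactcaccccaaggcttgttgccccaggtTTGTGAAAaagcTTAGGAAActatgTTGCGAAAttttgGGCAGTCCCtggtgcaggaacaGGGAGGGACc

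The NF-kappa-B letters matched 3 times, 197, 32 and 10 bases before the start at the first printed base of a match, with the middle match on the opposite strand. The C/EBP letters matched at 3 positions, 70, 58 and 45 bases before the start, and the last of them matched on both strands. A match is not a binding site. Of all 32851 promoter windows of the same length, 49.0% held the NF-kappa-B letters and 36.8% the C/EBP letters, so either match is common, and in the C3 window the matches of the 2 motifs do not overlap.

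The C3 probe that represents the gene is printed 10 times on each array, and its value was 8.00 with L2AKO LDL, 9.15 with L2AKO control, 7.45 with WT LDL and 8.59 with WT control. The SD among its 10 spots was between 0.0245 and 0.0858, so the 4 values stand apart from each other by far more than the spotting error. The LDL array of each line lay below its control, and each L2AKO array lay above the WT array with the same treatment. With LDL, C3 was 2.22-fold lower in L2AKO cells (log2 difference -1.15) and 2.21-fold lower in WT cells (log2 difference -1.14). Relative to WT cells, L2AKO cells had 1.47-fold more C3 signal without LDL (0.55) and 1.46-fold more with LDL (0.55), below the 2-fold threshold. The value with LDL, which includes the slide, ranged from 0.25 under quantile normalisation to 0.75 under median scaling, and was 0.31 in the authors' deposited values. The second C3 probe gave 7.04, 8.22, 6.10 and 7.47 on the L2AKO LDL, L2AKO control, WT LDL and WT control arrays. Its LDL differences were -1.18 in L2AKO cells and -1.37 in WT cells, and its knockout differences 0.75 without LDL and 0.94 with LDL, so both probes gave the same directions. In bulk RNA, fewer cells that make a transcript and less of it per cell cannot be told apart. The WT value for LDL missed 2-fold under quantile normalisation (-0.98) and in the authors' deposited values (-0.94).

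C4b encodes mouse C4, which the classical and lectin routes cleave to build their C3-cleaving enzyme. Its value was 2.24 with L2AKO LDL, 3.00 with L2AKO control, 1.65 with WT LDL and 2.31 with WT control. The order of the arrays was that of C3. Against the C3 probe that represents the gene, the LDL differences were smaller and the knockout differences slightly larger. No C4b difference reached 2-fold. The LDL difference was -0.77 in L2AKO cells and -0.66 in WT cells. The knockout difference was 0.69 without LDL and 0.59 with LDL. C4a, the near-identical neighbour gene in mouse, had no probe matched by accession here, and whether its RNA adds to the C4b signal was not tested.

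Cfb encodes factor B, which carries the protease of the alternative route's C3-cleaving enzyme and thereby the amplification loop. Its value was -0.87 with L2AKO LDL, 1.43 with L2AKO control, -2.75 with WT LDL and 0.10 with WT control. Both LDL arrays were low, the WT LDL array lowest, and the L2AKO control array was high. With LDL, Cfb was 4.92-fold lower in L2AKO cells (-2.30) and 7.19-fold lower in WT cells (-2.85). In WT cells this was the 13th lowest difference of 12978 genes measured, and in L2AKO cells the 27th lowest of 13008. L2AKO cells had 2.52-fold more Cfb signal than WT cells without LDL (1.33) and 3.68-fold more with LDL (1.88). All 4 Cfb differences kept their direction and stayed past 2-fold under the 3 other scalings, normexp correction and the authors' deposited values. The 3 other filters and the mean over probes could not change them, since Cfb has 1 probe, above background on all 4 arrays. The sizes moved, and the WT difference for LDL was -1.93 after normexp correction and -2.19 in the authors' deposited values. The knockout difference with LDL was 1.13 and 1.35 in the same order. The scanner software put the error of the Cfb signal on the WT LDL array at 12.6% of the signal.

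Cfd encodes factor D, also called adipsin, the protease that cleaves factor B once it is bound to C3b. The Cfd value was -4.63 on the L2AKO LDL array, where it was well above background, and -4.82, -6.53 and -4.40 on the L2AKO control, WT LDL and WT control arrays, where it was not. The lowest signal called well above background on the L2AKO control array was -4.45 and on the WT LDL array -4.40. Both lie above the L2AKO LDL value, so no bound on a fold can be given.

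Cfp encodes properdin, which stabilises the alternative route's C3-cleaving enzyme. Its value was -0.31 with L2AKO LDL, -0.22 with L2AKO control, 0.77 with WT LDL and 0.90 with WT control. Both L2AKO arrays were below both WT arrays. Within each treatment the knockout difference was opposite in sign to that of Cfb, whose product properdin stabilises in that enzyme. Cfp was 2.17-fold lower in L2AKO than in WT cells without LDL (-1.12) and 2.12-fold lower with LDL (-1.08). LDL arrays differed from control arrays by -0.09 in L2AKO cells and -0.12 in WT cells, within 1.96 times the technical SD (0.149). The knockout difference lies close to the threshold: it missed 2-fold after normexp correction (-0.93 without LDL and -0.93 with LDL), in the authors' deposited values (-0.96 and -0.98), and with LDL under median scaling (-0.88).

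Cfi encodes factor I, the plasma protease that inactivates C3b and C4b together with a cofactor. The Cfi probe read -7.18, -6.30, -6.43 and -6.26 on the L2AKO LDL, L2AKO control, WT LDL and WT control arrays, and none of these was well above background, so no difference is given.

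Serping1 encodes the C1 inhibitor, which blocks the proteases C1r and C1s. The probe that represents the gene read 1.18 with L2AKO LDL, 1.87 with L2AKO control, 1.30 with WT LDL and 1.46 with WT control. Only the L2AKO control array stood clear of the other 3. The second probe read 1.37, 1.79, 1.08 and 1.22 on those arrays and placed the same array highest. The probes disagreed on the knockout difference with LDL, which was -0.13 for the first and 0.29 for the second, and the first turned to 0.07 under median scaling. Without LDL the differences were 0.41 and 0.57. No Serping1 difference reached 2-fold. The largest for the first probe was the LDL difference in L2AKO cells, -0.69, which was -0.42 for the second.

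Cd55 encodes decay-accelerating factor, a lipid-anchored membrane protein that takes the C3-cleaving enzymes of all routes apart on host cells. Its promoter is shown for comparison with that of C3, since Cd55 was also lower on the LDL arrays, but by under 2-fold. The 250 bases before the start, on the minus strand of GRCm38.p6, span chr1:130462745-130462994, and capitals mark the 2 matches to GGGANNNNC, which begin 151 bases before the start on the opposite strand and 61 bases before it:

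Cd55 promoter: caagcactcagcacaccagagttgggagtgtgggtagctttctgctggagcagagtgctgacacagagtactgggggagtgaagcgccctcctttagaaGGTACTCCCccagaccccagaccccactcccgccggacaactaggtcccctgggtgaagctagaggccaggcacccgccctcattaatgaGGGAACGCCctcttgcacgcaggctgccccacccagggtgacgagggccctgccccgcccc

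The Cd55 value was 4.06 with L2AKO LDL, 4.67 with L2AKO control, 2.64 with WT LDL and 3.16 with WT control. Both L2AKO arrays lay above both WT arrays. Cd55 was 2.86-fold higher in L2AKO than in WT cells without LDL (1.52) and 2.67-fold higher with LDL (1.42). In both comparisons it stayed past 2-fold under the 3 other scalings, normexp correction and the authors' deposited values. The 3 other filters and the mean over probes could not change it, since Cd55 has 1 probe, above background on all 4 arrays. LDL arrays were lower than control arrays by less than 2-fold, with -0.62 in L2AKO cells and -0.52 in WT cells. The next gene on chromosome 1, Cd55b, is a closely related copy, so the signals of both genes are uncertain to the extent that the probes read RNA of the other copy. Cd55b read 2.17, 2.80, -0.10 and 0.67 on the L2AKO LDL, L2AKO control, WT LDL and WT control arrays. It was also higher in L2AKO cells, by 2.13 without LDL and 2.28 with LDL.

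Cd59a encodes a lipid-anchored membrane protein that keeps the terminal pore from assembling. Its value was -1.43 with L2AKO LDL, -1.88 with L2AKO control, -1.14 with WT LDL and -1.23 with WT control. Both L2AKO arrays were below both WT arrays, so the 2 membrane regulators lay on opposite sides. No Cd59a difference reached 2-fold. The knockout difference was -0.65 without LDL and -0.29 with LDL, and the LDL difference was 0.45 in L2AKO cells and 0.09 in WT cells. The neighbouring copy Cd59b was above background on the L2AKO control array only, at least 3.28-fold above WT control and at least 5.89-fold above L2AKO LDL.

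The promoters of Cfd, Cfp and Cd59a were also in the RefSeq table, and those of C4b, Cfb, Cfi and Serping1 were not used here. In all, 7 motifs were searched on both strands: the NF-kappa-B and C/EBP letters above, GAAANNGAA of interferon response elements, TTCNNNGAA of gamma-activated sites, TCACNCCAC of sterol regulatory elements, TGANTCA of AP-1 sites and TATAAA of the TATA box. Cd59a held GAAANNGAA, which 7.1% of all windows hold, overlapping 1 of its 2 NF-kappa-B matches, and Cfd and Cfp held none of the 7. Of 9 genes for factors that act through such sites, Nfkbia, an inhibitor and target of NF-kappa-B, differed with LDL by -0.69 in L2AKO cells and -0.39 in WT cells. Cebpd differed by -0.95 and -0.59 in that order of lines and Cebpb by -0.79 and -0.31. Irf7 differed by -0.70 in L2AKO cells and -2.09 in WT cells and Irf9 by -0.55 and -1.10. Only Irf7 and Irf9 in WT cells passed 2-fold. Nfkb1, a subunit of NF-kappa-B, differed by 0.05 in L2AKO cells and 0.09 in WT cells, its partner Rela by -0.27 and -0.05, and Irf1 by -0.04 and -0.34. Whether any of these factors has a part in the complement values was not tested.

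Without LDL, 2 of the 7 measured genes were at least 2-fold higher in L2AKO than in WT cells, Cfb and Cd55, and 1 was at least 2-fold lower, Cfp. Of all 12594 genes measured in that comparison, 7.56% were as much higher and 8.21% as much lower. The median difference of the 7 genes was 0.55, and that of all genes -0.01. With LDL the same calls were made: Cfb and Cd55 were higher and Cfp was lower, beside 8.29% of 12936 genes higher and 10.4% lower, with a median of 0.55 for the 7 genes and -0.05 for all. This second comparison includes the slide.

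The LDL comparison in L2AKO cells gave 0 genes at least 2-fold higher and 2 lower, C3 and Cfb, beside 0.93% of 13008 genes higher and 1.33% lower. The median of the 7 genes was -0.69 and that of all genes -0.08. In WT cells, again 0 were higher and the 2 lower genes were C3 and Cfb, beside 0.247% of 12978 genes higher and 1.02% lower. There the median was -0.52 for the 7 genes and -0.05 for all. In each line, Cd59a was the only one of the 7 genes with a difference above 0, by 0.45 in L2AKO and 0.09 in WT cells, and the WT value lies within 1.96 times the technical SD (0.149). The sign for Cfp in L2AKO cells turned with the scaling, up to 0.02.

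**Figure D1:**
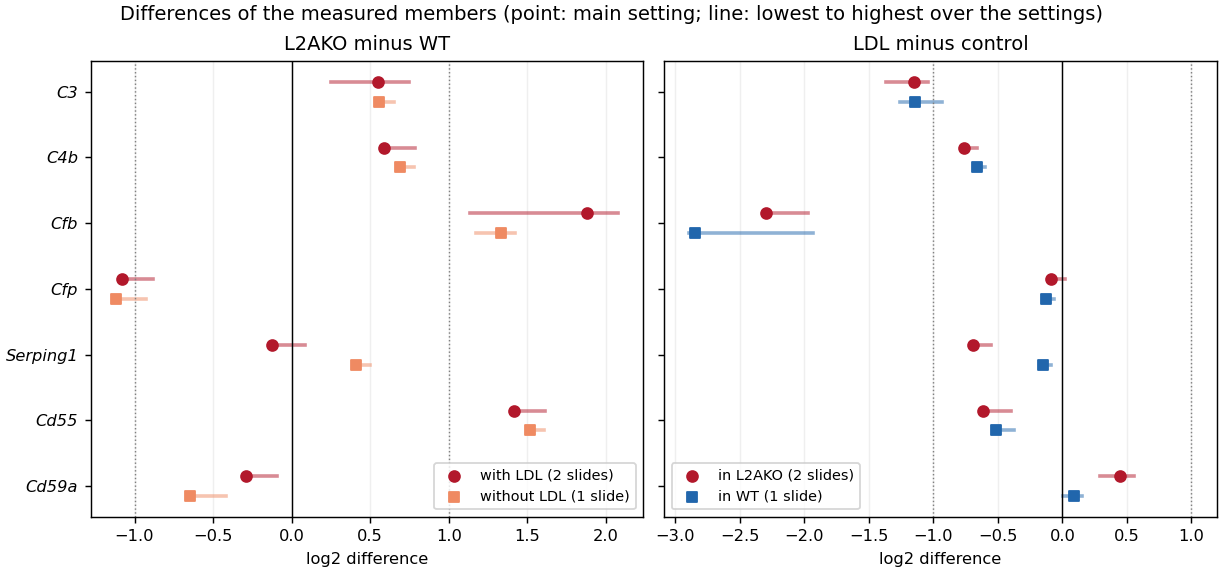
Log2 differences (x axis) of the 7 complement genes well above background on all arrays, L2AKO minus WT on the left and LDL minus control on the right. Points are the values given in the text, lines run from the lowest to the highest of the 9 alternatives and the main value, and dotted lines mark 2-fold. C3, C4b, Cfb and Cd55 lie right of 0 on the left and left of 0 on the right in both pairs of arrays, while Cfp lies near -1.12 and -1.08 on the left and near 0 on the right.

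The difference of the LDL responses, L2AKO minus WT, passed 2-fold for 0 of the 7 genes in either direction, beside 1.39% of 12492 genes above and 0.72% below. C3 had -0.00, Cfp 0.04, C4b -0.10 and Cd55 -0.10, all within 1.96 times the technical SD of 1 difference. Cfb had 0.55 and Cd59a 0.36, so the drop of Cfb signal with LDL was smaller in L2AKO cells, and Serping1 had -0.54. These sizes depend on the processing: Cfb had -0.04 after normexp correction and 0.13 in the authors' deposited values, and C3 ranged from -0.38 to 0.10. Since 1 of the 4 arrays lies on another slide and there are no replicates, a difference between the lines in their response cannot be told apart from the slide.

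**Figure D2:**
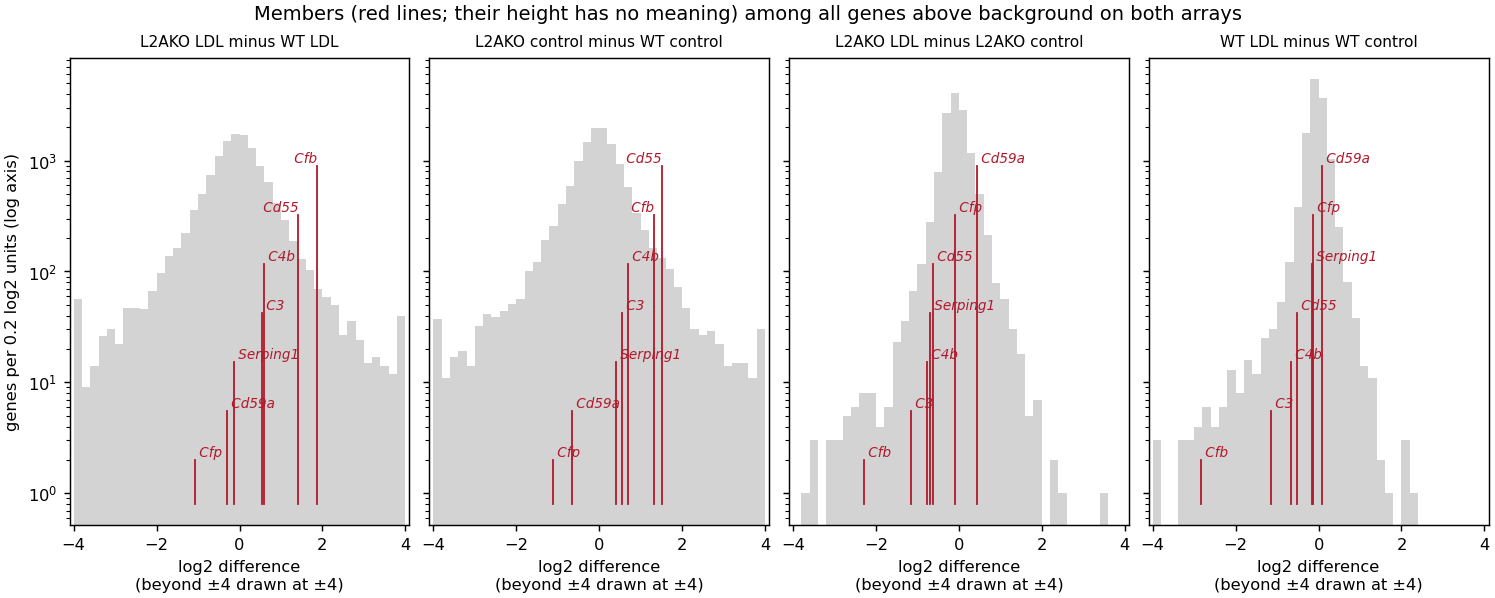
Histograms of the log2 difference (x axis) of all genes well above background on both arrays compared, with the number of genes per bin of 0.2 log2 units on a log axis (y axis), and red lines at the 7 complement genes, whose height has no meaning. In the LDL comparisons Cfb at -2.30 in L2AKO and -2.85 in WT cells lies in the left tail, and in the knockout comparisons Cfp lies left and Cfb and Cd55 right of the bulk of genes.

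The 7 genes did not share 1 pattern over the arrays. C3, C4b and Cfb had the same order, L2AKO control above WT control above L2AKO LDL above WT LDL, an order held by 346 of 12492 genes (2.8%). Cd55 followed the genotype first, with both L2AKO arrays above both WT arrays and the control above LDL within a line (11.7% of genes). Cfp had both WT arrays above both L2AKO arrays (its order was held by 17.2%) and Cd59a too, with LDL above control within a line (5.2%). Centred on their own means, C3 and C4b were the closest pair, with a root mean square distance of 0.222 over the 4 arrays, and Cfb and Cfp the most distant, at 1.83. C4b and Serping1 lay 0.308 apart, and Cfp and Cd59a 0.376.

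By the same distance among the 12492 genes above background on all 4 arrays, the genes nearest to each complement gene that ranged over at least 1 log2 unit were as follows. Nearest to Cfb were Zbp1, a sensor of left-handed nucleic acid (0.333), Saa1, an acute phase protein (0.454), and Oasl2, an interferon-induced gene (0.466). Saa1 differed with LDL by -3.09 in L2AKO cells and -3.85 in WT cells. Nearest to C3 were Erg28 (0.093), Micall2 (0.109) and Phf11b (0.131). Nearest to C4b were Slfn10-ps (0.035), the fatty acid desaturase Fads1 (0.045) and Cd74, the invariant chain of MHC class II (0.070). Nearest to Cd55 were Retn, which encodes resistin (0.048), C1s1 (0.054) and Prxl2a (0.091), and nearest to Cfp were Amacr, Bcap31 and Gemin7 (0.013 to 0.025). With 4 values per gene such closeness describes these arrays only.

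C2 and Cfb are adjacent on chromosome 17 and encode the homologous proteases of the classical and alternative C3-cleaving enzymes. C2 read -0.24 with L2AKO LDL, -0.23 with L2AKO control, 0.55 with WT LDL and 0.87 with WT control. It was 1.10 lower in log2 units in L2AKO than in WT cells without LDL, where Cfb was 1.33 higher, and it differed by -0.79 with LDL. The LDL difference of C2 was -0.01 in L2AKO cells and -0.32 in WT cells, against -2.30 and -2.85 for Cfb. The adjacent genes thus lay on opposite sides in the knockout comparison.

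The rest of the system was read in 50 further complement genes, of which 31 were above background on at least 1 array and 22 on all 4. Without LDL 8 of 22 measured genes were at least 2-fold higher in L2AKO than in WT cells and 1 was lower, with a median of 0.80. With LDL 10 of 24 were higher and 1 lower, with a median of 0.83. With LDL against control, 0 of 22 passed 2-fold in L2AKO cells, and in WT cells 0 of 25 were higher and 1 lower, the regulator Susd4 at -1.28. The background shares are those given above for each comparison.

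Among the initiators of the classical and lectin routes, 9 of 18 were measured. Without LDL 5 were higher in L2AKO than in WT cells (median 1.04) and C2 was lower, and with LDL 5 were higher and 0 lower (median 1.05). C1s1 read 6.48, 7.18, 5.18 and 5.72 on the L2AKO LDL, L2AKO control, WT LDL and WT control arrays, and its product is the protease that cleaves C4 and C2. Its knockout difference was 1.46 without LDL and 1.30 with LDL. C1rb, for the protease that activates C1s, had 1.32 and 1.17 in that order, C1s2 had 1.21 and 1.15, and C1rl had 1.04 and 1.05. C1ra had 0.94 and 0.95, below 2-fold. The second C1ra probe had 0.56 and 0.96, and its LDL difference in L2AKO cells was 0.01, against -0.68 for the first. The second C1s2 probe had 2.05 and 2.09. C1ra with C1rb, and C1s1 with C1s2, are near-identical copies in mouse, so their separate values are uncertain. The scavenger receptor and collectin Colec12 had 3.52 and 3.50. C1qb, a chain of the recognition protein C1q, lay on the other side at -0.27 and -0.64. With LDL, the 9 measured initiators differed by less than 2-fold from control, between -0.71 and 0.31 in L2AKO cells and between -0.69 and -0.04 in WT cells. C1qa, another C1q chain, was above background on the L2AKO control array only. It was at least 3.07-fold lower with L2AKO LDL than with L2AKO control, and at least 1.71-fold higher with L2AKO control than with WT control.

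Of 16 other regulators 7 were measured without LDL, and 3 were at least 2-fold higher in L2AKO cells and 0 lower. These were Thbd, for thrombomodulin, an endothelial surface cofactor that also restrains complement (3.99), C4bp, for the C4b-binding protein (1.23), and Cfhr2 (1.03). The second Cfhr2 probe differed by 0.53 without LDL and 0.75 with LDL, so the 2-fold call for Cfhr2 was lost with the mean over its probes. With LDL the same 3 had 4.23, 1.08 and 1.19, and clusterin (Clu), which keeps the terminal complex off membranes, had 1.05, against 0.82 in the comparison without LDL. Cr1l, a membrane regulator related to Cd55, had 0.02 without LDL and 0.00 with LDL. Csmd1 was lower in L2AKO cells, by at least 3.65-fold without LDL and at least 5.48-fold with LDL. Susd4 was not well above background on the L2AKO control array, and was at least 4.15-fold lower there than on the WT control array. With LDL it was measured in both lines and differed by -0.72.

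Of 7 terminal pathway genes, only C7 and C8g were above background, and neither passed 2-fold in any comparison. Of 9 receptors 4 were measured without LDL and none of these passed 2-fold. Itgb2, the shared beta chain of complement receptors 3 and 4, had 0.84 without LDL and 1.13 with LDL, and C3ar1, the C3a receptor, had 0.78 and 0.41. Cd93, a surface protein first described as a C1q receptor, read -4.94 with L2AKO LDL, -4.55 with L2AKO control, where it was not well above background, 0.39 with WT LDL and -0.20 with WT control. It was 5.34 lower in log2 units in L2AKO LDL than in WT LDL cells, and at least 19.1-fold lower in L2AKO control than in WT control cells. The L2AKO LDL value lies close to the lowest signal called well above background on that array, -5.08, so the size of 5.34 is uncertain. C5ar1, a C5a receptor, was above background on the L2AKO control and WT LDL arrays only. It was at least 3.06-fold higher in L2AKO control than in WT control cells, and at least 3.30-fold lower in L2AKO LDL than in WT LDL cells. These bounds, like the others given here, carry no spot or replicate error.

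**Figure D3:**
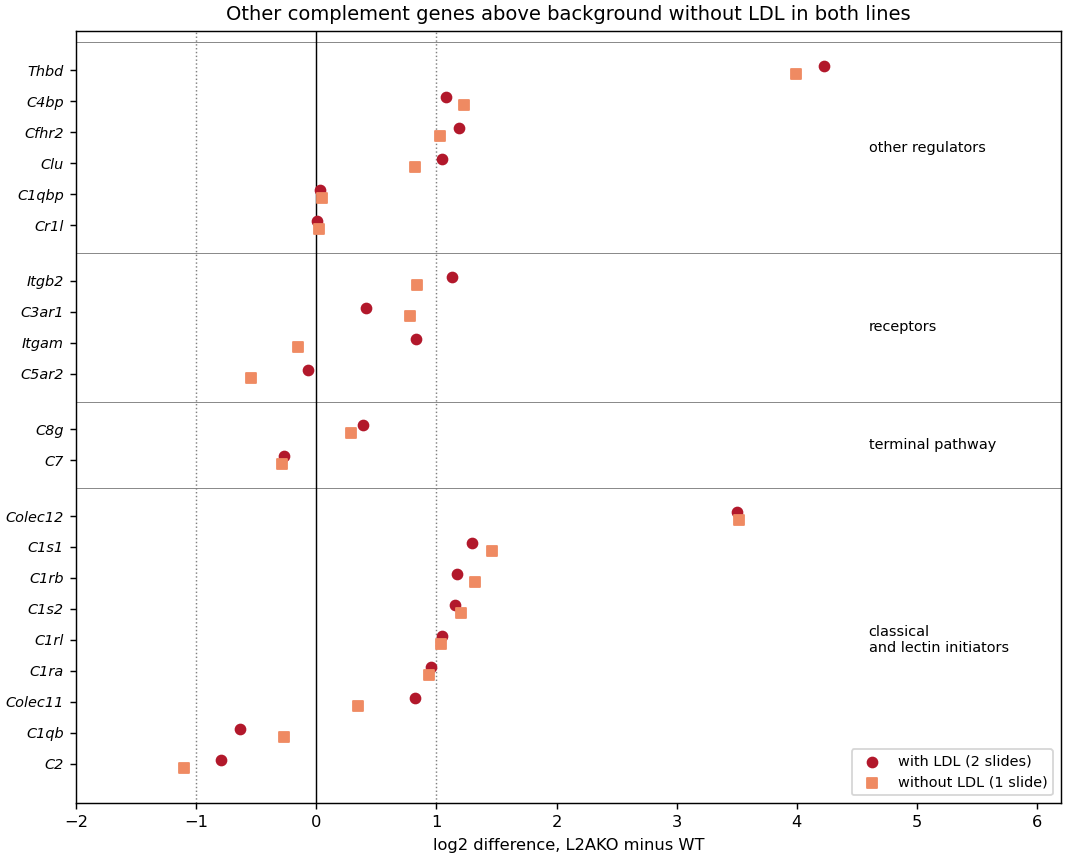
Log2 difference, L2AKO minus WT (x axis), of further complement genes above background on all 4 arrays, grouped by role (y axis), with 1 regulator not shown. Circles are the comparison with LDL, squares the one without, and dotted lines mark 2-fold. Thbd and Colec12 lie between 3.50 and 4.23, the C1r and C1s genes between 0.94 and 1.46, and C2 lies left of 0.

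Markers of other cell types also differed between the lines. Without LDL, the fibroblast list and the mesothelial and epithelial list passed 2-fold in both directions. Macrophage and adipocyte markers passed it only upwards in L2AKO cells. No measured endothelial or lymphocyte marker passed it by the probe that represents the gene. A second probe of the endothelial marker Kdr, above background on all arrays, differed by 2.06, against -0.38 for the probe that represents Kdr. A list's sum is on the linear scale relative to the 75th percentile and follows its brightest probes, so the count of markers past 2-fold stands beside it. Of all 12594 genes measured without LDL, 7.56% were at least 2-fold higher in L2AKO than in WT cells and 8.21% at least 2-fold lower. Adipocyte markers summed to 17.9 with L2AKO LDL, 17.3 with L2AKO control, 6.18 with WT LDL and 4.86 with WT control. Of these 8 markers 4 were above background on at least 1 array, and the defining Adipoq, Plin1, Cidec and Lep were not on any. All 3 measured without LDL were at least 2-fold higher in L2AKO cells.

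Macrophage markers summed to 51.7, 35.6, 32.8 and 37.9 on the L2AKO LDL, L2AKO control, WT LDL and WT control arrays. The brightest probe in these sums was that of Itgam, which read 5.46, 4.66, 4.63 and 4.82 in that order. The other Itgam probes, not in the sums, read between -4.57 and -3.89. Of these 9 markers 6 were above background on at least 1 array, and Adgre1, Ptprc and Fcgr1 on none. Of 5 measured without LDL, 2 were at least 2-fold higher in L2AKO cells and 0 lower. Trem2 differed by 3.39 and Cd68 by 1.85, against -0.63 for Cd14.

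Mesothelial and epithelial markers summed to 23.1, 19.7, 59.1 and 63.7 in the same order of arrays, and all 8 were above background on at least 1 array. Without LDL, 4 of 7 were at least 2-fold lower in L2AKO than in WT cells and 2 at least 2-fold higher. Cdh1 differed by -3.14, against 3.40 for Lrrn4 and 1.17 for Upk3b.

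Smooth muscle markers summed to 153, 159, 189 and 213 in that order of arrays. Of 6 measured without LDL, 2 were at least 2-fold higher in L2AKO cells, Tagln by 1.27 and Cnn1 by 1.11, and 1 lower, Actg2 by -1.73. At 1.5-fold, 2 of these 6 were higher and 3 lower. Fibroblast markers summed to 376, 380, 447 and 518. Of 9 measured without LDL, 4 were at least 2-fold higher in L2AKO cells and 2 lower. Serpinf1 differed by 4.28 and Pi16 by 4.14, against -1.69 for Dcn. Endothelial markers were above background for 3 of 8 genes, with sums between 4.53 and 5.76, and lymphocyte markers for 2 of 6, with sums between 0.49 and 0.67. Each line is a cultured, passaged population with 1 array per group. Genotype and other differences between the lines therefore cannot be told apart in the knockout comparisons. The part of these marker differences in the complement values was not tested.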

How the data were processed

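Total RNA of 4 groups was hybridised to 1-colour (Cy3) arrays, and the deposited scanner files held 62976 spots per array with linear intensity values. Per the file headers, Agilent Feature Extraction 10.7.3.1 subtracted the background from the intensity, and the design build is mm9. The authors' deposited value table also holds intensity on a linear scale. Its column medians were 57.4 (L2AKO LDL), 57.5 (L2AKO control), 57.6 (WT LDL) and 57.6 (WT control), its values followed the median spot signal in rank, and how it was scaled between arrays is unknown. RMA and oligo stand in the submitters' processing notes without a version.

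Control and outlier spots were left out, the log2 values of each probe's spots were averaged, and each array's 75th percentile was subtracted. Probes were named through RefSeq accessions in a gene table of GRCm38.p6, which matched 28330 of 55679 probes to 1 gene each and left 27349 without a name. Coordinates on that assembly belong to RefSeq's promoter table. A gene was represented by the probe whose mean over the 4 arrays was highest, and a gene was measured where both arrays compared had it well above background. A gene below background on 1 side got a bound only: the bright value was set against the dim one, or against the dim array's lowest signal well above background where that was higher. The complement genes, the other lists, the marker lists and the naming rule were chosen with earlier results of these data known. The naming rule took all 9 complement genes with every probe, Lamp2, other complement genes above background on at least 1 array, up to 3 genes nearest to each complement gene ranging over 1 log2 unit, motif factors, and up to 3 values per marker list. Of the other regulators, 1 is counted in its list and not reported here by itself. The genes next to a complement gene were read as well. The letters of the NF-kappa-B and interferon motifs were shortened by 1 after a first search.

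Per result, 10 alternatives were tried: 3 other scalings, normexp background correction (offset 50) followed by quantile normalisation, the authors' values, 3 other filters, the mean over a gene's probes, and a threshold of 1.5-fold. The last applies to counts only, which leaves 9 for a single gene. The steps were tested on simulated data. Tools were limma 3.58.1 in R 4.3.3, and scipy 1.17.1, pandas 2.3.3, matplotlib 3.10.9 and numpy 2.4.6 in Python 3.11.15. The number of arrays, 1 per group, limits the precision of every value.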

Additional observations from a re-analysis of the deposited data

Results flagged for a closer look

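Colec11, a collectin of the lectin route, differed with LDL in opposite directions in the lines, by 0.31 in L2AKO cells and -0.17 in WT cells. Itgam, the alpha chain of complement receptor 3, differed with LDL by 0.80 in L2AKO cells and -0.19 in WT cells, and between L2AKO and WT by 0.83 with LDL and -0.16 without LDL. The other 2 Itgam probes, well above background on only some of the arrays, had LDL differences of -0.28 and -0.15 in L2AKO cells, against 0.04 and -0.42 in WT cells. With 1 array per group the difference between lines was not tested for either gene, and the 0.31 and 0.80 both rest on the L2AKO LDL array, whose slide cannot be told apart from its group.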

How the results depend on the processing

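No paired analysis was possible because each group has 1 array and the labels give no replicate numbers, so no array could be left out and no replicate or slide block fitted. Of 200 counts under an alternative, 157 stayed within 1.5 times the value reported and 43 did not. The 157 include every count of the 9 complement genes higher in L2AKO cells in either knockout comparison. Those counts were 2 or 3, and a change from 2 to 3 lies within 1.5 times. Among the 7 complement genes, the count lower in L2AKO than in WT without LDL, 1 in the report, was 0 after normexp correction and in the authors' deposited values and 2 at 1.5-fold. With LDL, it was 0 instead of 1 under median scaling, normexp correction and the authors' values. The count lower with LDL in WT cells was 1 instead of 2 under quantile normalisation and the authors' values, and in L2AKO cells 5 instead of 2 at 1.5-fold. A response to LDL higher in L2AKO cells was counted for 1 gene, the dim Cfd, instead of 0 with genes above background on at least 1 array or with no filter. For the other complement genes, all alternatives were chosen after seeing the data. With genes above background on at least 1 array, 6 instead of 1 were lower in L2AKO without LDL and 3 instead of 1 with LDL, 3 instead of 1 were lower and 1 higher with LDL in WT cells, 2 lower and 1 higher with LDL in L2AKO cells, and 4 each way differed in response. With no filter, these counts were 8, 7, 6 and 3, 8 and 1, and for the response 4 above and 9 below. With genes above background on all 4 arrays, 0 instead of 1 were lower in L2AKO LDL than in WT LDL and 0 instead of 1 lower with LDL in WT cells. Normexp correction and the authors' values gave 0 instead of 1 lower in L2AKO without LDL and 0 instead of 1 lower with LDL in WT cells, the mean over probes 2 lower in L2AKO with LDL, and median scaling and the percentile over probes above background on all arrays 1 higher response. At 1.5-fold, 13 instead of 8 were higher in L2AKO without LDL, 4 instead of 1 lower with LDL, 4 lower and 1 higher with LDL in WT cells, 4 lower and 1 higher with LDL in L2AKO cells, and 1 response was higher. The 1.5-fold and filter settings differ by construction; for the other settings the cause was not tested.

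Median scaling moved the median of all genes by 0.20 in L2AKO LDL against WT LDL, and the share of higher among called genes to 60.0% from 44.4%. It moved that share to 55.7% in the LDL comparison of L2AKO cells, and the percentile over probes above background on all arrays to 53.6%. The signs of the Serping1 difference with LDL and of the Cfp difference in L2AKO cells turned within this shift, and of the differences of response those of C3, C4b, Cfb, Cfp and Cd55 changed sign in at least 1 alternative. The share of called genes with the higher response in L2AKO was 79.1% under median scaling, 85.1% after normexp correction and 84.5% in the authors' values, and the share higher with LDL in WT cells was 8.8% after normexp correction.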
